A study of Homo sapiens with 6 samples.

Results

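Chromatin round the start sites of 10 T cell surface and signalling genes, CD3E, CD3D, CD3G, CD2, CD4, CD8A, CD7, CD5, LCK and PTPRC, was described from ATAC-seq peak lists. In this assay a transposase cuts accessible DNA, and a peak is a place where the resulting reads pile up above background. The regions were every called peak within 5 kb of one hg19 transcription start site per gene, and peaks of different libraries that overlapped were joined. This gave 14 regions of the 32037 in the series. The windows of CD3D and CD3G, whose start sites lie 1600 bp apart, share 2 of the 14.

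The cells were CCRF-CEM, an established human T lymphoblast leukaemia line. Cells labelled as an SLFN11 gene knockout of this line were set against the parent cells, labelled wild type. How the knockout was made, and whether it is a single clone, is not given in the sources used here, so clone and genotype cannot be told apart. Each genotype received DMSO, the solvent, or 100 nM camptothecin, which traps topoisomerase I on DNA, with exposures of 2 h and 4 h. Every group is a single library, which leaves the spread between replicates unmeasured, and p-values are not printed. Intervals are 95% and cover counting error in the reads alone.

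The identity of the libraries needs care. Each list carries a library code in its peak identifiers, and that code stands in the title of exactly 1 sample, but it matched the title of the sample the file is recorded under in 0 of 6 files. Libraries are named here by the code: CB45_KO, CB45_KO_2 and CB45_KO_4 are knockout DMSO, 2 h and 4 h, and CCRF_WT, CCRF_WT2 and CCRF_WT4 are parent DMSO, 2 h and 4 h. By the file records instead, the codes ending in 2 are DMSO, those ending in 4 are 2 h and those with no number are 4 h. The treatment each list stands for turns on this choice. In the 6 treatment comparisons below, the treatment whose list has more regions of its own was set beside the placement. It stays the same for parent 4 h over 2 h and knockout 4 h over DMSO, and changes for the other 4. Each of these comparisons takes a different pair of lists under the other placement. The same 3 pairs of knockout and parent libraries are compared under either.

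CD3E, CD3D and CD3G are the signalling subunits that carry the T cell receptor's signal across the membrane. CD4 and CD8A are co-receptors that bind major histocompatibility complex molecules and bring the kinase LCK to the receptor, where it phosphorylates the CD3 chains, and PTPRC, known as CD45, is the membrane phosphatase that activates LCK. CD2 is an adhesion and costimulatory receptor, CD5 dampens receptor signalling, and CD7 is an early marker of the T lineage that is kept by most T cell leukaemias. An ATAC-seq peak shows that DNA is accessible, not that the gene is transcribed.

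Promoter sequences were taken from RefSeq (GRCh38.p14), which held 5 of the 10 genes in the table used. The 250 bases upstream of a start site are printed for 2 genes whose start-site region was held by 5 lists (LCK and CD3D) and for 2 with peaks in only 1 or 2 lists (CD2 and PTPRC). Sequences run 5′ to 3′ on the gene's strand, and capitals mark the letters AGGAAG, the core that ETS factors favour, and TGTGGT, the core that RUNX factors favour, each searched on both strands. LCK has 2 start sites in the table, 22856 bp apart, and the downstream one is printed as the nearer counterpart of the hg19 position. The builds differ, so no sequence coordinate was set against a peak coordinate.
LCK, chr1:32273871-32274120, plus strand: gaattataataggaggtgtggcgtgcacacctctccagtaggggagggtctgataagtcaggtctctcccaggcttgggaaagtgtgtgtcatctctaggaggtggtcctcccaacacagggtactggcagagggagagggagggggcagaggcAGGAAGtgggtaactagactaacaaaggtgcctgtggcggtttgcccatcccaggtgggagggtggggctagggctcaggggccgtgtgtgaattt
CD3D, chr11:118342706-118342955, minus strand: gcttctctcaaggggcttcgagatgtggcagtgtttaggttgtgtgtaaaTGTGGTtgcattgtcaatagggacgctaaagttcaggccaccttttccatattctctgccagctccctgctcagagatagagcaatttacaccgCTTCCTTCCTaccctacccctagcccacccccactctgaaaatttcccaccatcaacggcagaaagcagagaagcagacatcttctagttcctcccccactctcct
CD2, chr1:116754180-116754429, plus strand: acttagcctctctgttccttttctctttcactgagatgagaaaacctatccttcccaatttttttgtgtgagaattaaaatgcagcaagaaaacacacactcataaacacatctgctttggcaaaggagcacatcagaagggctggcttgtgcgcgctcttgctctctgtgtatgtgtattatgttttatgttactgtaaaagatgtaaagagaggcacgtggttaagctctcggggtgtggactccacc
PTPRC, chr1:198638790-198639039, plus strand: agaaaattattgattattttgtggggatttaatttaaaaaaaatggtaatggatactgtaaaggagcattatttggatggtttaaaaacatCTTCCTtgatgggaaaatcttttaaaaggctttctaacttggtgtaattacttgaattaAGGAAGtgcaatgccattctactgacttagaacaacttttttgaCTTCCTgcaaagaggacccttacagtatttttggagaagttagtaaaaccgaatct

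AGGAAG occurred once upstream of LCK, in 2 overlapping copies upstream of CD3D, in 3 copies upstream of PTPRC and not upstream of CD2. The upstream LCK start site, not printed, had 2 copies of AGGAAG and 1 of TGTGGT and a G and C share of 64.4%. The 4 CD8A start sites in the table, also not printed, had neither, with G and C shares of 59.2% to 64.4% and 5 to 17 CG dinucleotides. TGTGGT occurred once upstream of CD3D and in none of the other printed sequences. Of the 35116 upstream stretches of this length in the table, 28.7% held AGGAAG and 11% held TGTGGT. Of the forms of the site that GATA factors bind, only AGATAA was searched for. It occurred in none of the printed sequences, and in 9.17% of the table. The same held for the letters TATAAA of the core promoter box, found in 10.7% of the table. The 4 promoters also differ in base composition. The share of G and C was 57.6% for LCK, 50.4% for CD3D, 42.8% for CD2 and 31.2% for PTPRC, against a median of 58% over the table. CG dinucleotides numbered 3, 4, 4 and 1 in the same genes, and the table's median was 11.

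Across the 10 genes, a peak lay on the start site itself in at least 1 list for 8 genes, all but CD2 and CD4. Peaks within 5 kb were found for 7 genes in the knockout DMSO library, 9 at 2 h and 5 at 4 h, and for 4 genes in the parent DMSO library, 10 at 2 h and 6 at 4 h. CD3E, CD3D and CD8A had one in all 6 lists. CD2 had one in a single list, CD7 and PTPRC in 2, CD4 in 3, and CD3G, CD5 and LCK in 5. For CD3G a peak lay on the start site in 2 lists only. In knockout DMSO, knockout 2 h and parent DMSO its window held only the CD3D start-site peak, which counts for both genes. The 4 genes of parent DMSO thus rest on 3 regions. No region was held by all 3 lists of one genotype and none of the other. The matching share over all regions is not given here, so this is not read as a trait of these genes.

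**Figure D1:**
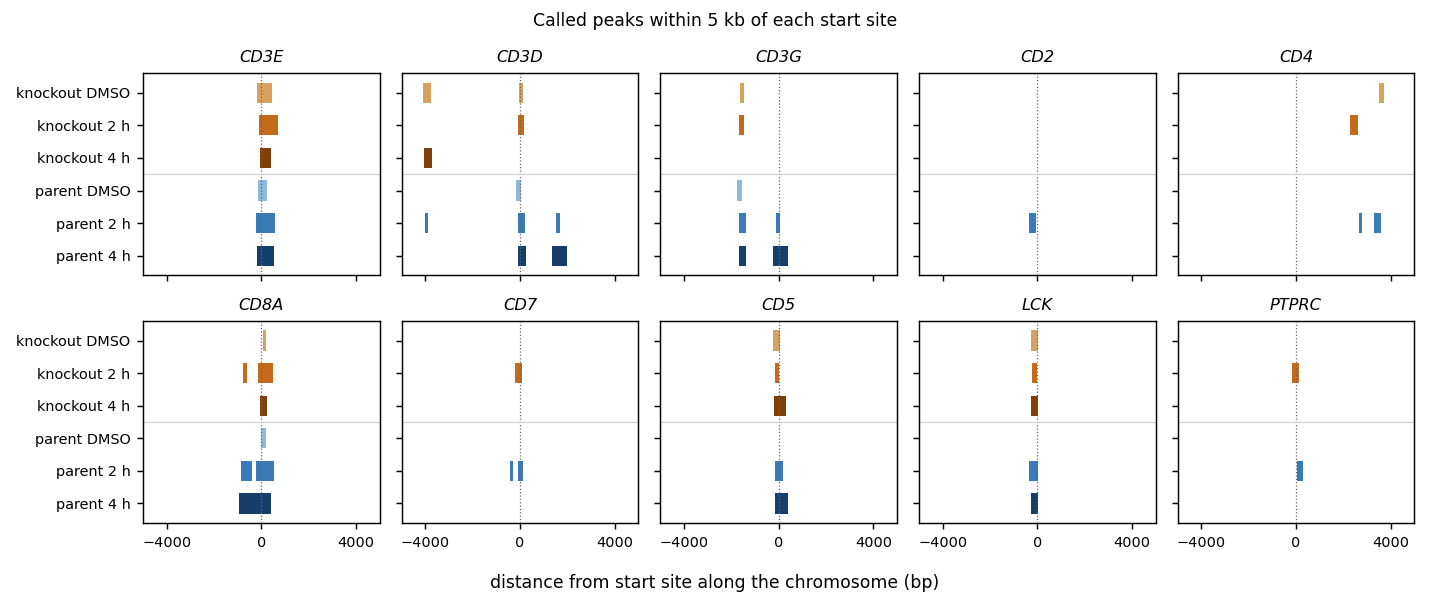
Called peaks (bars) within 5 kb of each start site in the 6 libraries, by distance from the start site in bp towards higher chromosome positions; the dotted line is the start site. CD3E and CD8A have peaks in all 6 rows, CD2 in 1, and the parent DMSO row is filled for 4 genes.

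The lists differed in size. They had between 18407 entries (parent DMSO) and 33916 (parent 2 h), and ended at a q of 0.01. Held regions made up 58.9%, 63.8% and 58.3% of the whole series in knockout DMSO, 2 h and 4 h and 43.3%, 72.9% and 66.8% in parent DMSO, 2 h and 4 h. The peak caller's fold and p together give back the number of reads at the summit, the summit pileup, and the local background, and this pileup came out whole to within 0.02 reads in 99.7% or more of each list's entries. Pileups were divided by a factor per library, the median ratio over the 11070 regions held by all 6 lists, to give scaled pileups. These factors ran from 0.639 in parent DMSO to 1.82 in parent 4 h. The lowest background of each list, which also rises with the number of reads, gave factors of only 0.945 to 1.06. Reads in shared peaks thus differed between libraries far more than background did, and results that change between the scalings are marked below.

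LCK had the highest start-site peak of the 10 genes in each list that held it except parent 4 h, where CD8A was higher (40 reads). The region spans chromosome 1, positions 32739348 to 32739744 of hg19, from -364 to 32 bp of the start site. The summit held 27, 25 and 30 reads in knockout DMSO, 2 h and 4 h. In parent 2 h and 4 h it held 32 and 38, and the parent DMSO list had no peak. The knockout 2 h peak ended 17 bp before the start site. Knockout values all lay below the listed parent values before scaling, and all above them after it, at 32.6, 26.3 and 38.3 scaled reads in knockout DMSO, 2 h and 4 h and 21.3 and 20.9 in parent 2 h and 4 h. Within their lists these peaks were mid-range or higher, exceeding between 56.2% and 80.8% of the other peaks in fold enrichment.

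The missing LCK peak of parent DMSO was set against what that list could show. At the backgrounds of 2.97 to 3.9 reads seen in the 5 other lists, a summit needed 12 to 14 reads to enter it. The median scaled pileup of the other lists corresponds to 16.8 reads there, above that need, and to 27 reads if the lowest background sets the scale. The listed parent libraries, at 21.3 scaled reads at 2 h and 20.9 at 4 h, lay within that need, which is 18.8 to 21.9 on the same scale. With shared regions as scale and those backgrounds, a parent DMSO peak at the level of the other parent libraries could therefore have gone unlisted. With background scaling those libraries had 32.1 scaled reads at 2 h and 39.1 at 4 h. At the parent DMSO factor of 0.945 such a level is above the need. Whether a peak at the level of the parent libraries alone would have been listed thus depends on the scale. The median level of all 5 other lists is above the need on both scales. The backgrounds come unscaled from those lists, and that of parent DMSO at this site is unknown.

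The CD3E start-site region, chromosome 11, 118175082 to 118175982, was held by all 6 lists. Summit pileups were 16, 16 and 13 reads in knockout DMSO, 2 h and 4 h and 13, 20 and 29 in parent DMSO, 2 h and 4 h. Scaled, they ran from 13.3 reads (parent 2 h) to 20.3 (parent DMSO), with the genotypes overlapping. With the background as scale they ran from 12.4 (knockout 4 h) to 29.8 (parent 4 h).

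CD3D and CD3G are read from neighbouring start sites, and their shared windows differed between libraries. The CD3D start-site region, chromosome 11, 118213285 to 118213691, had 15 reads at the summit in each of knockout DMSO and 2 h and no peak at 4 h. The parent libraries had 12, 26 and 32 reads in DMSO, 2 h and 4 h. After scaling the 5 values lay between 15.8 and 18.8, and with the background as scale between 12.7 (parent DMSO) and 32.9 (parent 4 h). The region on the CD3G start site, 118214814 to 118215432, was listed in parent 2 h and 4 h alone, with 26 and 23 reads. Local background was high here, at 5.52 and 4.62 reads, and at those backgrounds a summit needs 15 to 17 reads in the knockout lists and 16 to 18 in parent DMSO. The median scaled parent level, 15, corresponds to between 9.58 and 14.3 reads in those 4 lists, below the need in each. The parent 2 h value of 17.3 lies within the knockout 2 h need of 15.8 to 17.9 scaled reads. With background scaling the level was 23.5 to 26.3 reads, above the need in all 4. These needs use the parent 2 h and 4 h backgrounds unscaled. At the CD3D start site the background was 2.88 reads in parent DMSO and 4.17 and 4.19 in knockout DMSO and 2 h. It was 6.31 and 5.14 there in parent 2 h and 4 h. Whether a peak of that level could have been listed therefore depends on the scale and on the background assumed. A further, lower region at -4122 to -3726 bp of the CD3D start site, towards lower chromosome positions, had 17 and 18 reads in knockout DMSO and 4 h and 20 in parent 2 h.

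Among the co-receptors, CD8A and CD4 differed in where peaks lay. The CD8A region, chromosome 2, 87034582 to 87036060, was the widest of the 14 at 1479 bp and was held by all 6 lists, with 15, 18 and 11 reads in knockout DMSO, 2 h and 4 h and 12, 29 and 40 in parent DMSO, 2 h and 4 h. Peak widths in it ran from 158 bp in knockout DMSO to 1333 bp in parent 4 h, where the peak had 5 summits. Knockout 2 h and parent 2 h each had a separate peak near its lower end, at -790 to -603 and -873 to -401 bp of the start site, which the wide parent 4 h peak joins to the start-site peak. CD4 had no peak on its start site in any list. Its 3 regions lay between 2297 and 3695 bp above the start site, on chromosome 12 between positions 6900935 and 6902333, with 11 to 14 reads and folds of 3.3 to 3.84. They were called in knockout DMSO, knockout 2 h and parent 2 h only, no region in more than 2 lists, and 3 of the 4 peaks exceeded fewer than 5% of the peaks of their list in fold, the other 9.25%.

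CD5, CD7, CD2 and PTPRC had peaks of at most 21 reads. The CD5 region, chromosome 11, 60869705 to 60870325, had 21, 13 and 11 reads in knockout DMSO, 2 h and 4 h and 12 and 13 in parent 2 h and 4 h, with no peak in parent DMSO. Scaled, the knockout values (25.3, 13.7 and 14) all exceeded the parent values of 7.99 and 7.15. Under background scaling they overlapped. The CD7 start-site region, chromosome 17, 80275250 to 80275587, was listed in the 2 h libraries of both genotypes alone, with 21 reads in the knockout and 11 in the parent. PTPRC showed the same pair of lists, with 13 reads in the knockout and 12 in the parent on chromosome 1, 198607912 to 198608379. CD2 had 1 peak of 10 reads in parent 2 h, on chromosome 1, 117296725 to 117297031, ending 55 bp before the start site, and a second CD7 region with 12 reads was likewise found in parent 2 h alone.

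**Figure D2:**
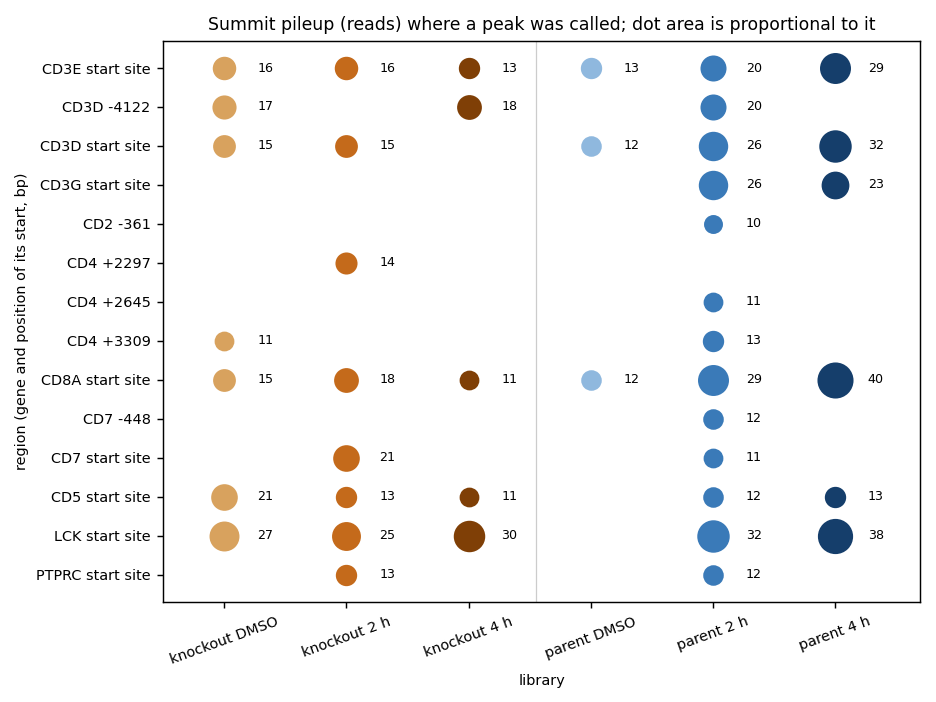
Reads at the summit (number and dot area) for each of the 14 regions (rows, named by gene and by position in bp from its start site) in each library (columns); an empty cell means no called peak. LCK ranges from 25 to 38 reads in 5 lists, and the CD2, CD4 and PTPRC regions from 10 to 14.

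How widely the 14 regions were shared was set beside the same shares over all 32037 regions. All 6 lists held 2 of the 14 (14.3%, against 34.6%), 5 lists held 3 (21.4%, against 9.69%), 2 lists held 4 (28.6%, against 12.2%) and a single list held 4 (28.6%, against 27.3%). The share of the 14 held was 50%, 57.1% and 35.7% in knockout DMSO, 2 h and 4 h and 21.4%, 92.9% and 42.9% in parent DMSO, 2 h and 4 h. Only in parent 2 h, with 13 of 14, was this above that list's share of all regions. In fold enrichment 2 of 7, 2 of 8 and 1 of 5 peaks exceeded their list's median in knockout DMSO, 2 h and 4 h, as did 0 of 3, 2 of 13 and 3 of 6 in parent DMSO, 2 h and 4 h. These are descriptions of 14 regions and were not tested.

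**Figure D3:**
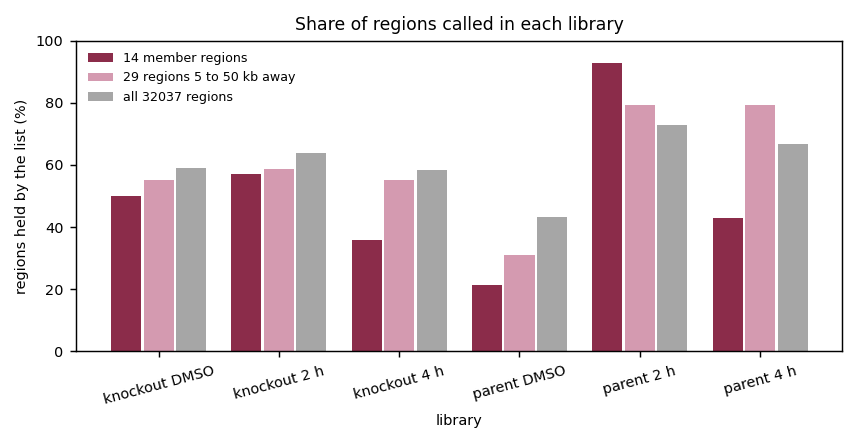
Share (%) of the 14 regions, of the 29 regions lying 5 to 50 kb from the same start sites and of all 32037 regions that each list holds. Parent 2 h holds 92.9% of the 14, parent 4 h holds 42.9% of them but 79.3% of the 29, and parent DMSO is lowest in all 3 sets.

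In parent cells, 2 h of camptothecin was compared with DMSO to ask how the peaks of drug-treated and solvent-treated wild-type cells differ. Of the 13 regions in either list, 10 were in the 2 h list alone and 0 in the DMSO list alone, where over all regions 43% were in the 2 h list alone and 4.13% in the DMSO list alone. The 10 were the start-site regions of LCK, CD5, CD7, PTPRC and CD3G, both the lower CD3D and CD7 regions, the CD2 region and 2 of CD4. CD3E, CD3D and CD8A start sites were held by both, with scaled ratios of 2 h over DMSO of 0.655 (0.31 to 1.43), 0.923 (0.45 to 2.01) and 1.03 (0.509 to 2.21). None passed 2-fold, which over all regions in both lists 0.94% did upward and 11.6% downward. With the background as scale the CD3D and CD8A ratios became 2.05 and 2.29, and all regions moved with them, from a median log2 ratio of -0.05 to 1.10. In lists of equal length 1 region was in the 2 h list alone and 1 in the DMSO list alone, with no share over all regions given at that setting. By the file records these lists are DMSO over 4 h, and the excess belongs to DMSO.

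At 4 h in parent cells the excess over DMSO was smaller. The start-site regions of LCK, CD5 and CD3G were in the 4 h list alone, 3 of 6 regions in either list, against 39.4% of all regions, and 0 were in the DMSO list alone, against 6.63%. Scaled ratios of 4 h over DMSO were 0.784 (0.395 to 1.64) for CD3E, 0.937 (0.47 to 2) for CD3D and 1.17 (0.603 to 2.45) for CD8A, and none passed 2-fold (1.82% of all regions did upward and 20.3% downward). By the background they were 2.17, 2.59 and 3.24, with all regions at a median log2 ratio of 1.41. The file records make this pair 2 h over 4 h. Both comparisons share the DMSO library, the one with the fewest peaks.

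The parent 4 h list was the one with most reads in shared peaks, yet it lacked 7 regions that parent 2 h held, and it held none that parent 2 h lacked. Over all regions 18.5% were in the 2 h list alone and 11.1% in the 4 h list alone. The 7 were the CD2 and PTPRC regions, 2 of CD7, 2 of CD4 and the lower one of CD3D, with 10 to 20 reads in parent 2 h. At the scaled level of the lists that held them, all 7 would have met the pileup needed in parent 4 h, and with background scaling 6 of the 7 would. That need was taken at the unscaled backgrounds of the lists that held them. In the 6 regions held by both, scaled ratios of 4 h over 2 h ran from 0.73 (CD3G, 0.398 to 1.33) to 1.2 (CD3E, 0.654 to 2.23), and all intervals included 1. None passed 2-fold, against 0.135% of all regions upward and 4.49% downward. By the file records this pair is 2 h over DMSO. With -log10 q of at least 5 no region differed, and in lists of equal length 1 region differed, in the 4 h list alone. Shares over all regions at those settings are not given.

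In SLFN11-knockout cells, 2 h of camptothecin was set against DMSO. Of 10 regions in either list, the CD7 and PTPRC start sites and 1 CD4 region were in the 2 h list alone (3, with 19.5% over all regions). The lower CD3D region and another CD4 region were in the DMSO list alone (2, with 12.8% over all regions). The 5 regions in both had scaled ratios of 2 h over DMSO between 0.539 (CD5, 0.248 to 1.13) and 1.04 (CD8A, 0.497 to 2.23). None passed 2-fold, which 0.327% of all regions did upward and 0.649% downward. The file records make these lists DMSO and 4 h.

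At 4 h in knockout cells, 0 regions were in the 4 h list alone and 2, the CD3D start site and 1 CD4 region, were in the DMSO list alone, against 16.3% and 17.2% of all regions. Scaled ratios of 4 h over DMSO ran from 0.553 (CD5, 0.241 to 1.2) to 1.17 (LCK, 0.675 to 2.05), none past 2-fold (0.74% of all regions upward and 0.413% downward). By the background CD5 was past it, at 0.488 (0.212 to 1.06). Set against knockout 2 h, the 4 h list had 1 region of its own, the lower CD3D one (12.6% over all regions), and lacked 4, the start sites of PTPRC, CD7 and CD3D and 1 CD4 region (20.2%). Here ratios of 4 h over 2 h ran from 0.742 (CD8A, 0.317 to 1.66) to 1.46 (LCK, 0.828 to 2.58). None passed 2-fold (1.08% of all regions upward and 0.293% downward). By the file records these pairs are 2 h over 4 h and 2 h over DMSO.

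The knockout was compared with the parent at each treatment, a single library of each, in which clone and genotype cannot be told apart. Under DMSO the knockout list alone held 4 of the 7 regions in either, the start sites of LCK and CD5, the lower CD3D region and 1 of CD4, against 31.7% of all regions, and the parent list alone held 0, against 7.21%. The 3 regions in both were nearly equal after scaling, with knockout over parent at 0.95 for CD3E (0.428 to 2.15) and 0.965 for both CD3D and CD8A (0.422 to 2.26). None passed 2-fold (0.475% of all regions upward, 1.05% downward), and by the background all 3 turned to 1.19 to 1.21. The file records place this pair at 4 h.

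At 2 h the knockout list alone held 1 of 14 regions, a CD4 one (11.9% over all regions), and the parent list alone held 6, the CD3G start site, the CD2 region, the lower CD3D and CD7 regions and 2 of CD4 (22.8%). CD7 was the one region past 2-fold, with 22.1 scaled reads in the knockout and 7.33 in the parent, a ratio of 3.01 (1.39 to 6.91); 6.63% of all regions passed 2-fold upward and 0.659% downward. By the background the CD7 ratio was 1.8 (0.829 to 4.13), whose interval includes 1. The other 6 ratios lay between 0.91 (CD3D, 0.448 to 1.78) and 1.71 (PTPRC and CD5, 0.718 to 4.1). The PTPRC peaks of the knockout and parent lists overlap by less than 50% of the shorter peak. If that overlap is required they are not joined, and the knockout list alone holds 2 regions and the parent list alone 7. By the background LCK turned from 1.23 to 0.736 and CD3E from 1.26 to 0.754. The file records place this pair at DMSO. In lists of equal length the parent list alone held 0 regions and the knockout list alone held 1, with no share over all regions given at that setting.

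At 4 h the knockout list alone held the lower CD3D region, 1 of 7 in either (14.4% over all regions), and the parent list alone held the CD3D and CD3G start sites (25.3%). LCK had 38.3 scaled reads in the knockout and 20.9 in the parent, a ratio of 1.83 (1.1 to 3.04), and CD5 had a ratio of 1.96 (0.796 to 4.75). CD8A went the other way, at 14 scaled reads in the knockout and 22 in the parent, a ratio of 0.638 (0.295 to 1.27), and CD3E was at 1.04 (0.496 to 2.06). None of the 4 passed 2-fold, while 21.3% of all regions did upward and 1.33% downward. The background scale turned the direction for LCK (0.73, 0.437 to 1.21), for CD5 (0.782, 0.317 to 1.89) and for CD3E (0.414, 0.198 to 0.823) and took CD8A to 0.254 (0.118 to 0.505). Under it the median over all regions in both lists was -1.19 in log2, against 0.14 with shared regions as scale. The file records place this pair at 2 h.

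**Figure D4:**
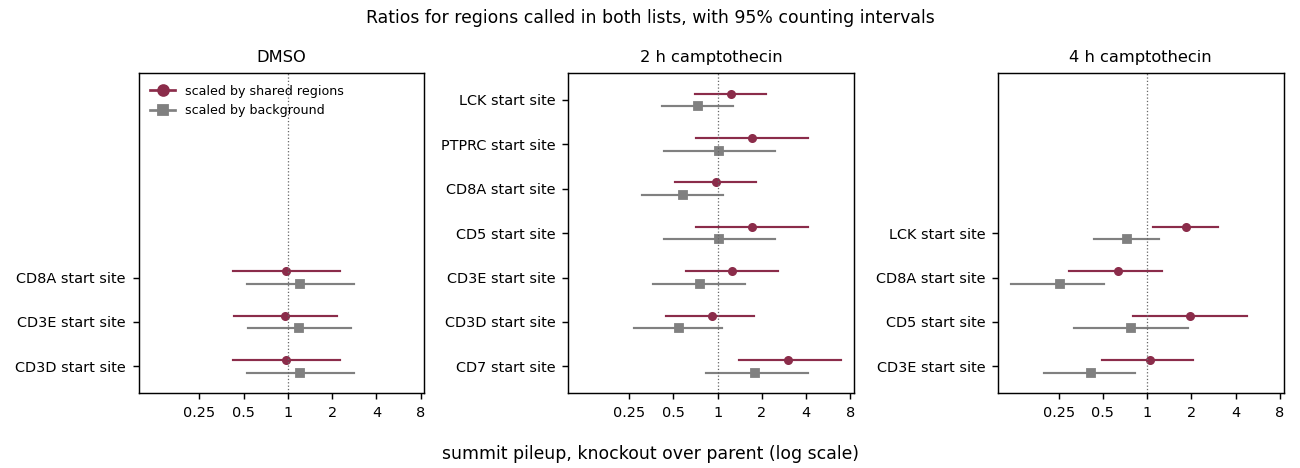
Knockout over parent ratio of summit pileup (log axis) for regions called in both lists at each treatment, with 95% counting intervals, scaled by the regions shared by all lists (circles) or by the lowest background (squares). CD7 at 2 h (3.01) and LCK at 4 h (1.83) have circle intervals above 1, and their square intervals include 1.

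Of 40 ratios over the 9 pairwise comparisons, 2 had an interval that excluded 1 with shared regions as scale. They were CD7 at 2 h and LCK at 4 h in knockout over parent. With the background as scale 6 did. These were CD8A in parent 2 h over DMSO, CD8A, CD3E and CD3D in parent 4 h over DMSO, and CD8A and CD3E in knockout over parent at 4 h. All regions in both lists shifted the same way there, with median log2 ratios of 1.10, 1.41 and -1.19. The share of all regions with such intervals is not given here. Of 84 combinations of region and library 42 (50%) had a peak. Over all regions the share held by a list ran from 43.3% (parent DMSO) to 72.9% (parent 2 h). For the other 42, the level of the lists that held the region was set against the pileup needed. With shared regions as scale it fell short in 27, met the need in 12 and lay within the range of needs in 3. With background scaling these numbers were 7, 31 and 4. The same split over all regions is not given here. The levels come from lists in which the region was called, which favours high values. The needs use the backgrounds of those same lists unscaled, and the background where a region was missing is unknown. These numbers therefore depend on the background assumed.

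SLFN11 itself, the other genes of the receptor pathway and markers of other blood lineages were not located, since no hg19 annotation was used here, and whether the regions are exonic or intronic was likewise not analysed. The region nearest the 5 kb limit on its inner side was the lower CD3D region. The nearest outside it lay at -6564 to -5993 bp of the CD4 start site, with 13 to 19 reads in 5 lists, followed by one 9157 bp above the CD5 start site with 8 reads in parent 2 h.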

How the data were processed

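ATAC-seq peak lists of 6 libraries were used. Per the submitters' processing notes, the tools included MACS2 2.1.2, BWA 0.7.17, Picard 2.9.2, SAMtools 1.8, Trimmomatic 0.39 and Trim Galore 0.6.2, with the hg19 build. Settings, and any shift of reads for the transposase, were not stated. The score deposited by the authors is 10 times the -log10 q. The fold enrichment, a ratio over local background, and the -log10 p and -log10 q of each summit are also the authors' deposited values. Peaks were called per library, since each list carries 1 code.

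From these, overlapping entries of a list were merged, entries outside chromosomes 1 to 22 and X were left out, and peaks overlapping by at least 1 bp were joined into regions. Pileup and background were solved from fold and p under a Poisson model, tested on simulated data. Read totals are unknown. Ratios carry exact conditional binomial intervals, and amplified reads are not independent molecules. All 10 genes and 14 regions are reported, with no test between libraries. The members and lists were chosen with earlier results of these data known, and the motifs after the peak values were seen. Alternatives were other windows, a stricter q, equal list lengths, another overlap, another scale and the placement by file record. Python 3.11.15, NumPy 2.4.6, SciPy 1.17.1 and matplotlib 3.10.9 were used.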

Additional observations from a re-analysis of the deposited data

Results flagged for a closer look

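Peaks of 2 regions were listed in opposite libraries of the genotypes under the same contrast. This is a pattern of listing, and no difference was tested. The share of all regions with such a pattern is not given here, so the count is not read as a result about these genes. The lower CD3D region was listed in knockout DMSO (17 reads) and not at 2 h, and in parent 2 h (20 reads) and not in DMSO. Between 4 h and 2 h the same region was listed in knockout 4 h (18 reads) and not at 2 h, and in parent 2 h (20 reads) and not at 4 h. The CD4 region at 3309 to 3695 bp was listed in knockout DMSO (11 reads) and not at 2 h, and in parent 2 h (13 reads) and not in DMSO. The 2 CD4 peaks lay at 3489 to 3695 bp in knockout DMSO and 3309 to 3579 bp in parent 2 h. They overlap by less than 50% of the shorter peak. If that overlap is required they are not joined, and only the CD3D region keeps the pattern. For the CD4 region as joined, the level of the lists that held it was under the need where it was missing. It was 10.4 reads against 11 in knockout 2 h and 7.01 against 11 to 12 in parent DMSO. At the unscaled backgrounds of the lists that held it, a peak of that level would not have been listed. For the CD3D region that level was 19.5 reads in knockout 2 h against a need of 12 to 16, 13.1 in parent DMSO against 13 to 16, and 37.3 in parent 4 h against 12 to 16. With background scaling the CD3D level was above the need in all 3, and the CD4 level above it in knockout 2 h (12.8) and within it in parent DMSO (11.5). With 1 library a group no value has a replicate check.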

How the results depend on the processing

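No paired analysis was possible because each group has 1 library, for any single comparison, and for the same reason none could be left out. A genotype contrast over all 6 libraries with treatment as a block, which would take the 3 treatments as its repeats, was not run. Of 147 alternative values of 30 counts, 89 stayed within 1.5 times the reported count and kept its direction, 50 moved further and 8 changed direction. In the order knockout DMSO, 2 h and 4 h, then parent DMSO, 2 h and 4 h, genes with a peak numbered 4, 4, 3, 1, 5 and 5 at a -log10 q of at least 5, as did regions. In lists of equal length (14205 peaks each) genes numbered 4, 4, 3, 4, 3 and 5 and regions 4, 4, 3, 3, 3 and 4. Shares of all regions held at these settings are not given here. Within 50 kb all libraries had a peak at 10 genes except parent DMSO with 9, and unmerged entries gave parent 4 h 10 regions.

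Regions in 1 list of a pair moved as follows. With libraries placed by file record, parent 2 h over DMSO had 7, parent 4 h over DMSO 10, and parent 4 h over 2 h 3. Knockout 2 h over DMSO had 5, 4 h over DMSO 5 and 4 h over 2 h 2, and knockout over parent had 7 under DMSO, 3 at 2 h and 4 at 4 h. The direction of the excess changed for parent 2 h and 4 h over DMSO, knockout 2 h over DMSO, knockout 4 h over 2 h, and knockout over parent under DMSO and at 4 h. At a -log10 q of at least 5 the counts were 4 for parent 2 h over DMSO, 0 for parent 4 h over 2 h, 2 for knockout 2 h over DMSO, 3 for knockout 4 h over 2 h and 3 for knockout over parent at 2 h. In lists of equal length they were 2, 1, 2, 3 and 1 for the same pairs and 1 for parent 4 h over DMSO, with the direction changed for parent 4 h over 2 h and for knockout over parent at 2 h. The matching shares of all regions at these 2 settings are not given here, so the counts are not read as results about these genes.

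Regions past 2-fold numbered 2 in parent 2 h over DMSO, 3 in parent 4 h over DMSO, 0 in knockout over parent at 2 h and 2 at 4 h, both with background scaling and with none, and 1 in knockout 4 h over DMSO with background scaling alone. At 1.5-fold there was 1 in each of parent 2 h, knockout 2 h and knockout 4 h over DMSO, and 3 in knockout over parent at both 2 h and 4 h. Shares of all regions past the fold at these settings are not given here. By the background, the median log2 ratio over all regions in both lists was 1.10 for parent 2 h over DMSO and 1.41 for 4 h. It was -0.65 and -1.19 for knockout over parent at 2 h and 4 h, and -0.16 for knockout 4 h over DMSO. With placement by record the CD7 difference moves to DMSO (1, with 0 at 2 h). The causes of these shifts were not tested.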

Other observations

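Further from the start sites the same loci held 29 regions between 5 and 50 kb, of which 8 (27.6%) were in all 6 lists. Several were higher than the start-site peaks themselves. A region 11.7 kb above the CD3E start site had 31, 28 and 17 reads in knockout DMSO, 2 h and 4 h and 19, 43 and 32 in parent DMSO, 2 h and 4 h. One 15 kb above CD2 had 29, 22 and 24 reads in the knockout and 20, 40 and 33 in the parent, in the same order of treatments. The only peak called within 5 kb of the CD2 start site had 10 reads, in parent 2 h. PTPRC had regions in all lists 17 kb below and 42.5 kb above its start site, with 25 to 50 and 25 to 68 reads. Its called start-site peaks had at most 13.

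LCK had a region in all 6 lists 17.6 kb above its start site, with 38, 35 and 35 reads in the knockout and 25, 55 and 86 in the parent. Another, 23.7 kb below, was in the same 5 lists as the LCK start site, with 18, 28 and 22 reads in knockout DMSO, 2 h and 4 h and 21 and 30 in parent 2 h and 4 h. RefSeq gives LCK a second, upstream start site, and whether this region belongs to it was not analysed. Around CD8A, a region 16.7 kb above the start site was in 5 lists with 16 to 22 reads. The highest pileup within 50 kb of any of the 10 genes was 24.4 kb below CD7, with 32, 48 and 32 reads in the knockout and 27, 75 and 99 in the parent. Which genes these distant regions serve cannot be read from peak lists.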
